A study of Mus musculus with 12 samples.

Results

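Ageing of the heart microRNA profile was examined in Clock mutant mice by comparing ventricles of 3 animals aged 21 months with ventricles of 3 animals aged 4 months. All 3163 probe sets of the array were compared, of which 1908 are for mature miRNAs and 1255 for precursor hairpins. Every mouse of these groups was C57Bl/6J, carried Clock delta 19/delta 19, and was killed at ZT 6 (6 hours after lights on). The wild-type mice used beside them were of the same strain, ages and hour, again with 3 hearts at each age. The series holds 12 hearts, 6 of them Clock. The labels name no drug, diet or surgery. They call the replicates biological, and each array was counted as 1 animal.

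CLOCK is a transcription factor that pairs with BMAL1 and drives the genes of the circadian oscillator and its output genes. The mutant protein lacks a part of its activation region and interferes with the normal complex. A miRNA is made from a hairpin precursor that is cut to a short mature strand, and the mature strand guides the silencing complex to messenger RNAs with a matching seed. In heart muscle, miRNAs tune contractile, growth and matrix genes, and their levels are known to shift with load and with age.

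The deposited value of a probe set is its level relative to its own median over the 12 arrays, on a scale taken as log2. The values show which hearts were high or low for a given miRNA, but not how abundant it was. Probe sets carry registry accession numbers, and 0 of them matched the reference tables of names and sequences used here. MiRNAs are therefore given by accession, 2 higher and 2 lower, without a name, role, sequence or position. The miRNA lists for heart muscle, fibrosis, ageing, the clock and other cell types could not be applied, so the labelled tissue was not checked against markers. In whole ventricle, fewer cells of a type and less RNA per cell cannot be told apart.

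Old Clock hearts had a higher level of 2 mature miRNAs, MIMAT0003475 and MIMAT0000134, and both rises were large, at 4.89-fold and 7.62-fold. No precursor passed, and no probe set was called lower. The 2 calls were 0.0632% of the 3163 probe sets (limma, Benjamini-Hochberg adjusted p under 0.05). In the lower direction the percentage called was 0, while 125 probe sets with lower values had an unadjusted p under 0.05. One model with a mean for each of the 4 groups was fitted to all 12 arrays, so the wild-type hearts contributed to the estimate of the spread.

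**Figure D1:**
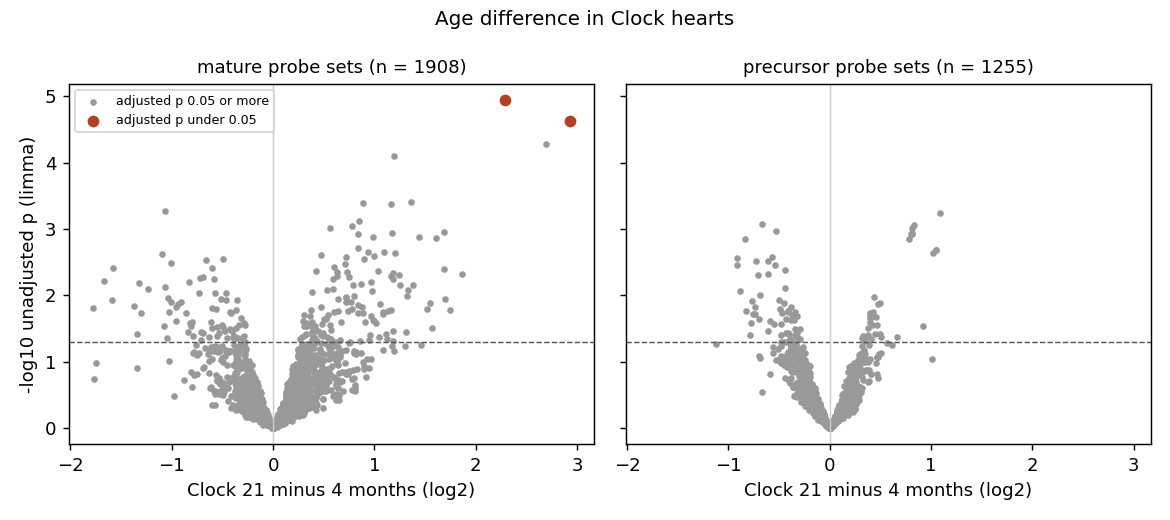
Age difference in Clock hearts (21 minus 4 months, log2, x axis) against −log10 of the unadjusted limma p (y axis), for 1908 mature and 1255 precursor probe sets. The dashed line marks the unadjusted threshold. The 2 called probe sets (large points) lie at differences of 2.29 and 2.93, and the precursor differences span a narrower range than the mature ones.

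MIMAT0003475 was at -1.47, -1.33 and -1.96 in the young Clock hearts and at 0.25, 1.19 and 0.67 in the old ones. The groups were far apart, with a gap of 1.58 between the highest young and the lowest old heart. The difference between the means was 2.29 (SE 0.31, 95% confidence interval 1.61 to 2.97, limma adjusted p = 0.036). In wild-type hearts the same probe set was at 0.25, -0.81 and -0.20 at 4 months and at 0.37, 0.20 and -0.31 at 21 months, and these groups overlapped. The age difference there was 0.34 (SE 0.31, limma adjusted p = 0.916). The age differences of the 2 genotypes differed by 1.95 (SE 0.44), which did not pass over all probe sets (limma interaction, adjusted p = 0.626). All 3 young Clock hearts lay below all 3 young wild-type hearts, with a mean difference of -1.33 (SE 0.31, limma adjusted p = 0.631), a comparison that shares the young Clock hearts with the age difference.

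MIMAT0000134 was at -0.83, -1.88 and -1.77 in the young Clock hearts and at 1.48, 2.19 and 0.64 in the old ones. Again no old heart reached down to a young one, and the gap was 1.47. The difference of 2.93 (SE 0.43, 95% confidence interval 1.99 to 3.87, limma adjusted p = 0.037) was the largest among all 3163 probe sets in this comparison. Wild-type hearts had -0.26, -0.76 and -1.56 at 4 months and 0.97, 0.26 and 0.69 at 21 months. These groups did not overlap either, with an age difference of 1.496 (SE 0.43) that did not pass (limma adjusted p = 0.546). The difference between the genotypes in the age effect was 1.43 (SE 0.61, limma adjusted p = 0.942).

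Both calls depended on which arrays entered the fit. In a fit to the 6 Clock hearts alone, with the same differences, the limma adjusted p was 0.197 for each. Leaving out any 1 of the young Clock hearts, or wild-type 21-month replicate 1 or 2, gave 0 calls. Without wild-type 4-month replicate 2 there were 4 calls, and without Clock 21-month replicate 3 or wild-type 21-month replicate 3 there was 1. Without Clock 21-month replicate 2 there were 2 calls, neither of them among the original 2, and without Clock 21-month replicate 1 there were 2 with 1 of the original 2. The differences themselves stayed between 2.05 and 2.52 for MIMAT0003475 and between 2.55 and 3.33 for MIMAT0000134 over the 12 fits that left out 1 array.

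**Figure D2:**
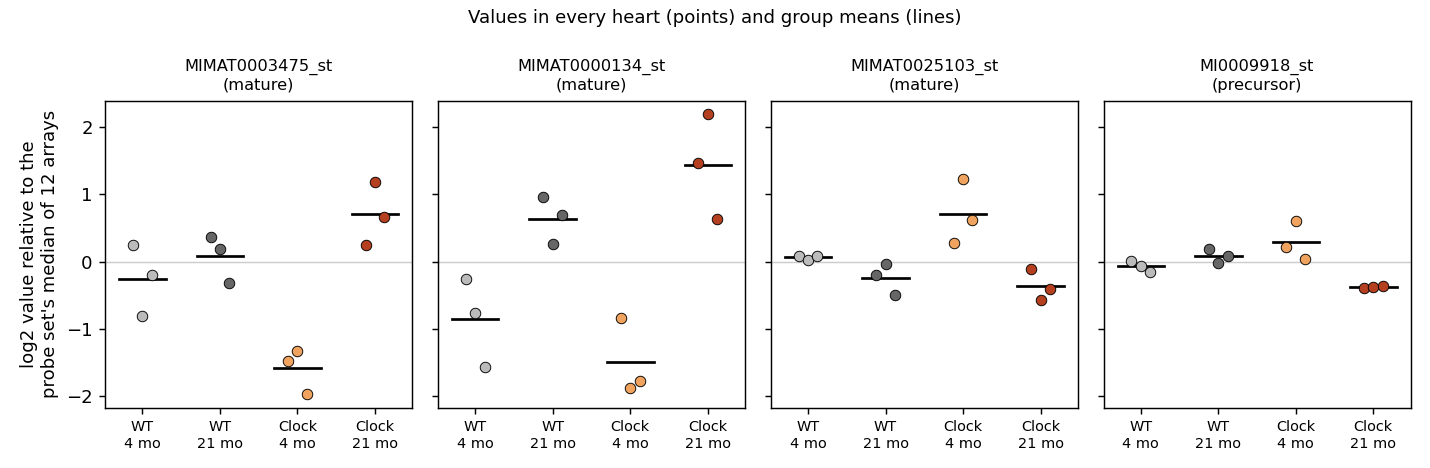
Values of the 4 probe sets given by accession, in every heart (points, 3 per group) with group means (lines). The y axis is the log2 value relative to the probe set's median over 12 arrays. The first 2 were higher in old Clock hearts, and the other 2, which did not pass, had lower values there.

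Of the probe sets with lower values at 21 months, the mature miRNA MIMAT0025103 had the smallest p. It was at 0.28, 1.23 and 0.62 in young and at -0.10, -0.56 and -0.40 in old Clock hearts. The groups did not overlap, but the young hearts were widely spread. The difference was -1.06 (SE 0.22) and did not pass (limma adjusted p = 0.164). The wild-type age difference was -0.31 (SE 0.22, limma adjusted p = 0.882).

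The next was a precursor, MI0009918, with 0.22, 0.61 and 0.04 in young Clock hearts. The old Clock hearts were nearly identical, at -0.39, -0.38 and -0.36. The difference of -0.67 (SE 0.15) did not pass (limma adjusted p = 0.164). In wild-type hearts the values were close to 0 at both ages, from -0.16 to 0.19, and the age difference was 0.15 (SE 0.15, limma adjusted p = 0.917). The age differences of the genotypes differed by -0.82 (SE 0.21), again without passing (limma interaction, adjusted p = 0.671).

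Just short of the threshold were 2 further mature miRNAs with higher values in old Clock hearts. The nearer one had values of -1.04, -1.72 and -1.07 in young and 0.46, 2.54 and 1.25 in old hearts. Its difference was 2.69 (SE 0.43, limma adjusted p = 0.0559). The second had a difference of 1.19 (SE 0.20, limma adjusted p = 0.0634) in Clock hearts, and was the only probe set called for age in wild-type hearts (0.0316% of all), where it rose by 1.45 (limma adjusted p = 0.0401). Of the 10 probe sets with the smallest p in Clock hearts, 9 were mature and 9 had higher values at 21 months. Of all 3163 probe sets, 1908 were mature, and 53.3% of all differences were above 0. The cut at 10 was arbitrary.

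The mature and the precursor probe sets leaned in opposite directions. Before adjustment, p was under 0.05 for 128 mature probe sets with higher values in old Clock hearts (6.71%) and for 72 with lower values (3.77%), 10.5% in all. Among precursors 34 (2.71%) were higher and 53 (4.22%) lower, 6.93% in all. The 34 were 22 of the 1080 precursor probe sets with the plain suffix _st, 9 of the 146 marked _x_st and 3 of the 29 marked _s_st. With the marked ones left out of the fit, 22 precursors were higher and 41 lower. The median difference was 0.049 over mature and -0.021 over precursor probe sets, and 58.2% of the mature against 45.9% of the precursor differences were above 0. After quantile normalization, the counts were 98 higher and 82 lower for mature and 24 higher and 60 lower for precursors, with medians of 0.022 and -0.045. The share of higher among probe sets at this threshold therefore moved with scaling in both classes, toward lower values. The mature balance stayed on the higher side and the precursor balance on the lower side.

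Whole groups separated in a similar way, but these counts come from the same hearts and values and are no separate evidence. All 3 old Clock hearts lay above all 3 young ones at 174 mature probe sets (9.12%) and below them at 109 (5.71%), which is 14.8% in all. For precursors the counts were 71 above (5.66%) and 102 below (8.13%), which is 13.8% in all. In wild-type hearts the counts leaned in the same directions. Of the 1908 mature probe sets, all 3 old hearts lay above all 3 young ones at 137 and below them at 90. Of the 1255 precursors, these counts were 60 and 77. At an unadjusted limma p under 0.05, 83 mature probe sets were higher (4.35%) and 36 lower (1.89%) in wild type. Among precursors 21 were higher (1.67%) and 37 lower (2.95%). Whether the lean differed between mature and precursor probe sets, or between genotypes, was not tested.

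Within single hearts, the mean over mature minus the mean over precursor probe sets was 0.0019, -0.080 and -0.090 in the young and 0.015, 0.00078 and 0.106 in the old Clock hearts. Young replicate 1 lay just above the lowest old heart, so the ages overlapped on this measure. Old replicate 3 was the furthest to the mature side.

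Differences of more than 2-fold were mostly of mature probe sets. Above 2-fold, 45 mature probe sets were higher and 22 lower in old Clock hearts, against 5 and 1 precursors. The groups did not overlap at 35 of the 45 and 12 of the 22. Over all mature probe sets, 9.12% lay fully above and 5.71% fully below. The 45 and 22 were selected for large differences in the same hearts, which makes a lack of overlap more frequent. Above 4-fold there were 3 mature probe sets, all higher, which are both called ones and the one nearest to the threshold. Mature differences ran from -1.78 to 2.93 and precursor differences from -1.13 to 1.09. The 95% confidence interval left out a 2-fold change in either direction for 1424 mature probe sets (74.6%) and 1187 precursors (94.6%). Its median half-width was 0.454 for mature and 0.385 for precursor probe sets. Some of these probe sets may be at background, because the values hold no signal level.

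Single hearts contributed unequally. More than 1 log2 unit above their own median were 34, 29 and 39 mature probe sets in the young Clock hearts and 27, 60 and 60 in the old ones. More than 1 unit below were 15, 53 and 59 in the young and 6, 56 and 3 in the old. Young replicates 2 and 3 thus had many low mature miRNAs and replicate 1 few, and old replicate 2 was the only old heart with many low ones. Old replicate 1 stayed close to the medians in both directions. Precursors left their medians by more than 1 unit in at most 11 probe sets above and 4 below in any Clock heart.

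**Figure D3:**
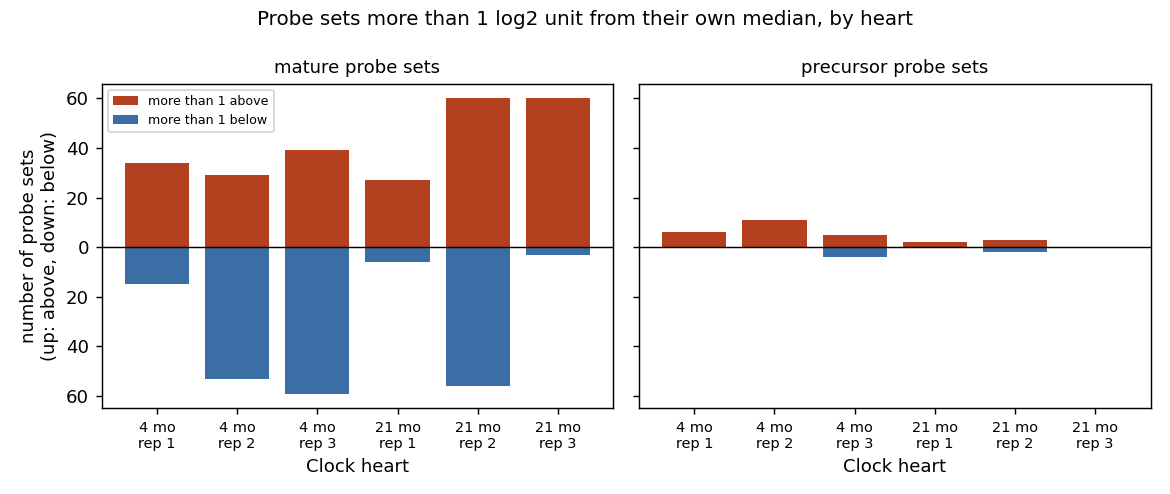
Number of probe sets (y axis) more than 1 log2 unit above (upward bars) or below (downward bars) their own median over 12 arrays, in each of the 6 Clock hearts, for mature and precursor probe sets. Downward bars are long in young replicates 2 and 3 and in old replicate 2 (53, 59 and 56 mature probe sets).

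The 3 young Clock hearts did not resemble one another equally. Over the 1908 mature probe sets, which share each array's labelling and scaling, young replicates 2 and 3 correlated at 0.329. Young replicate 1 correlated at -0.0094 and 0.057 with them. Among the old hearts the correlations were 0.076, 0.131 and -0.097, the last between replicates 2 and 3. Between ages all 9 correlations were below 0, from -0.265 to -0.0087. Correlations of values taken relative to a median are low by construction. Without Clock 21-month replicate 2, the mature counts before adjustment were 147 higher and 68 lower. Without young replicate 3 they were 97 and 67, and without young replicate 2 they were 104 and 59.

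The Clock age differences were set beside those of wild-type hearts. The 2 age differences share no array, but the values of each probe set were centred over all 12 arrays together. Whether the signs matched more often than over all probe sets was not tested. Of the 200 mature probe sets at an unadjusted p under 0.05 in Clock hearts, 142 (71.0%) had an age difference of the same sign in wild type, against 58.8% of all mature probe sets. Of the 128 higher ones 95 were also higher in wild type, and of the 72 lower ones 47 were also lower. The size carried over less. The median difference among the 200 was 0.726 in Clock, without regard to sign, and 0.17 in wild type in the direction of Clock, though the first is large by selection. At an unadjusted p under 0.05 in both genotypes were 29 of the same and 3 of the opposite sign. Over all 1908 mature probe sets, 83 were higher (4.35%) and 36 lower (1.89%) in wild type at this limma p.

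For precursors the same values were as follows, and the classes were not tested against each other. Of the 87 precursors at an unadjusted p under 0.05 in Clock hearts, 55 (63.2%) had the same sign in wild type, against 53.6% of all precursors. Both genotypes were under that p with the same sign at 3 and with the opposite sign at 3. Over all 1255 precursors, 21 were higher (1.67%) and 37 lower (2.95%) in wild type at that limma p. The age differences of Clock and wild type, taken across probe sets that are not independent of each other, correlated at 0.116 over 1255 precursors, where the 1908 mature probe sets gave 0.375.

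**Figure D4:**
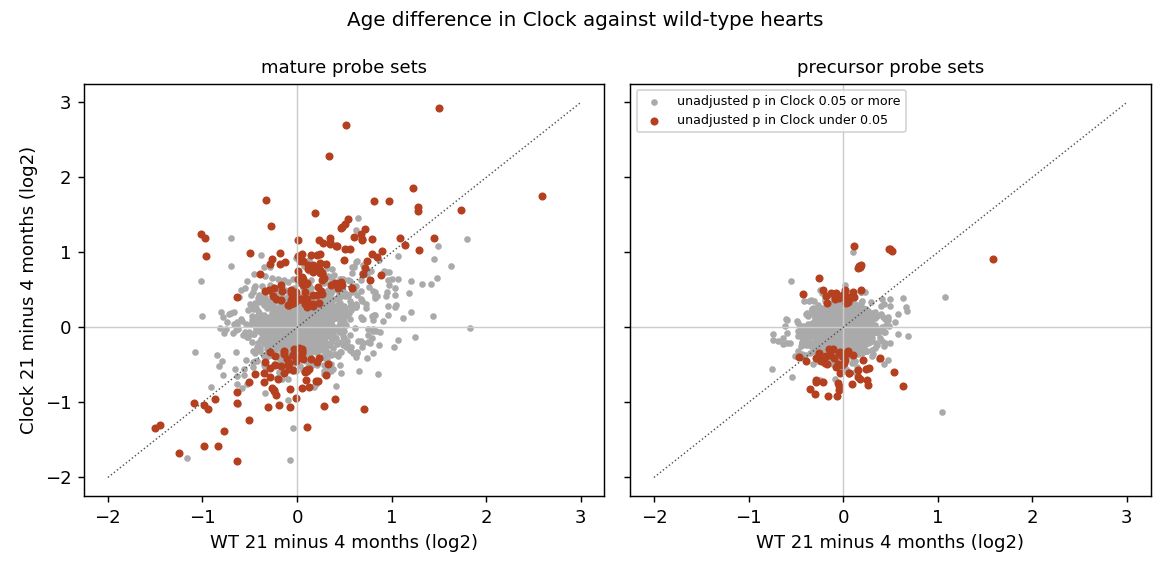
Age difference (21 minus 4 months, log2) in Clock hearts (y axis) against that in wild-type hearts (x axis), 1 point per probe set. Coloured points had an unadjusted limma p under 0.05 in Clock, and the dotted line marks equal differences. The correlation across points was 0.375 for mature and 0.116 for precursor probe sets.

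No probe set passed the test of a different age effect in the 2 genotypes (limma interaction, 0 of 3163, a percentage of 0; smallest adjusted p = 0.626). Before adjustment, p was under 0.05 for 141 (4.46%), made up of 86 mature probe sets and 55 precursors.

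The accession number of a miRNA follows roughly the order in which the registry took it in, so low numbers are miRNAs described early. Mature probe sets were described in 4 ranges of this number, which were chosen after the values were seen, so no difference between ranges was tested. Among the 204 with a number up to 1000, 38 had an unadjusted p under 0.05 (18.6%), 32 higher and 6 lower at 21 months. The share was 13.1% of 350 for numbers over 1000 and up to 5000, 9.05% of 497 up to 20000, and 8.28% of 857 above 20000. The counts higher and lower were 34 and 12, 26 and 19, and 36 and 35 in these 3 ranges. The groups did not overlap at 25%, 13.1%, 16.1% and 12.4% of probe sets in the 4 ranges, which is no steady order. The median difference was above 0 in every range, at 0.076, 0.040, 0.055 and 0.040 from the lowest numbers to the highest. The mature call MIMAT0000134 and the call MIMAT0003475 both lie below 5000, in ranges that hold 204 and 350 of the 1908 mature probe sets. The calls come from the same values and are no separate evidence.

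In wild-type hearts the shares at an unadjusted p under 0.05 were 5.88%, 6.00%, 4.63% and 7.35%, with 5 higher and 7 lower up to 1000. Whether the shares differed between genotypes was not tested. In the Clock contrast, the share up to 1000 lay between 12.3% (without young replicate 2) and 20.1% (without old replicate 2) when each array was left out. The share above 20000 then lay between 7.70% and 9.10%. The median difference without regard to sign was 0.156 up to 1000 and 0.184 above 20000. The median SE was lower in the early accessions, 0.183 against 0.212. Precursors had shares of 7.42%, 6.75%, 7.77% and 6.05% in these ranges.

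Over the 204 mature probe sets with a number up to 1000, the median value per heart was -0.012, -0.022 and -0.026 in young and 0.034, 0.039 and 0.047 in old Clock hearts. The 204 were taken by number alone, but the range was chosen after the values of the same hearts were seen. The medians are therefore not a separate result. Over the 857 above 20000, the medians were -0.0049, 0 and -0.020 in young and -0.012, -0.015 and 0.051 in old Clock hearts, and the ages overlapped. In wild type the medians up to 1000 were 0.012, -0.020 and -0.0038 in young and 0.0069, -0.013 and 0.00065 in old hearts, and these overlapped.

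**Figure D5:**
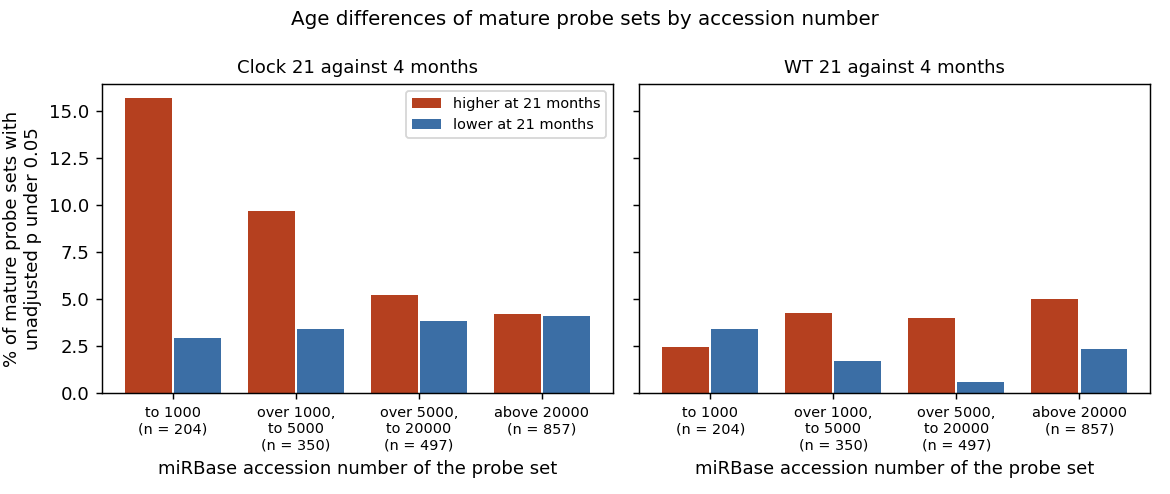
Percentage of mature probe sets with an unadjusted limma p under 0.05 (y axis), higher or lower at 21 months, by accession number range (x axis), in Clock and in wild-type hearts. In Clock hearts 15.7% of the earliest accessions were higher and 2.94% lower, against 4.20% and 4.08% above 20000.

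Several precursor probe sets are not separate measurements. Of the precursor accessions, 79 had more than 1 probe set, and for 77 with exactly 2 the paired age differences correlated at 0.676. The pair had the same sign in 62 of 77 (80.5%), with a median gap of 0.085. One pair differed by 1.24, and over the 12 arrays 1 pair correlated at -0.66. Of the 9 pairs in which either probe set had an unadjusted p under 0.05, both did in 2.

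A group of 6 precursor probe sets moved as 1 signal in the Clock hearts. The group was noticed after the values were seen. The lowest correlation between any 2 of them over the 12 arrays was 0.998. All carry the suffix _x_st, which marks probe sets whose probes may match other sequences. Their mean was -0.36, -0.30 and -0.41 in young and 0.51, 0.26 and 0.61 in old Clock hearts, with no overlap. Each differed by 0.79 to 0.83 with an unadjusted p under 0.05 and did not pass (limma, smallest adjusted p = 0.164). Wild-type age differences were 0.16 to 0.19. These 6 made up part of the 34 precursors with higher values, and 28 lay outside the group. The group was 1 of 3 that held 4 or more probe sets linked by correlations above 0.95. The other 2 groups held 9 precursor probe sets, all marked _x_st, and 4 mature ones. In Clock hearts their age differences were 0.093 to 0.101 and -0.133 to 0.018, with smallest unadjusted limma p of 0.521 and 0.596.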

How the data were processed

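Ventricular RNA was extracted by miRNeasy and labelled with biotin by an Affymetrix protocol, per the labels. The authors deposited 1 table of 3163 probe sets by 12 arrays. Its log2 values were centred by the authors: the median over the arrays is 0 (tolerance 1e-06) in all 3163 deposited rows. The log base was taken as 2. No source used here gives the background correction or the scaling. Another base would change folds and leave tests as they are.

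Group means were compared in limma 3.58.1 (R 4.3.3) on all 12 arrays and all probe sets, with 8 residual degrees of freedom and a prior of 3.44. P-values were adjusted by Benjamini-Hochberg over the 3163 probe sets. No signal filter or variance trend was possible. Probe sets were named by a rule limited to 2 higher and 2 lower with the smallest p, since no names matched. The members and lists were chosen with earlier results of these data known.

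In simulated data for 21 against 4 months in Clock hearts (3163 probe sets, 200 changed, 20 draws), 17.1% of changes of 0.5, 78.1% of changes of 1 and 98.3% of changes of 2 were recovered, with 4.74% false calls. The noise was drawn as normal values, independently for each probe set and array, with the spread estimated by the fit. The share of false calls therefore does not cover probe sets that move together. The recovered shares apply to 200 changed probe sets, and recovery with fewer changed ones was not tested. They do not give the share of 2-fold changes called in the Clock hearts. There, 50 probe sets were higher and 23 lower by more than 2-fold at 21 months, and 2 were called. The main fit treated the samples as unpaired. Deviations from the group means correlated between -0.103 and 0.0063 for same-numbered Clock hearts of the 2 ages. For those of different number the range was -0.083 to 0.113. Whether some probe sets shared a replicate effect was not tested. The 3 arrays per group limit the precision.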

Additional observations from a re-analysis of the deposited data

How the results depend on the processing

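The number of probe sets called for age in Clock hearts was 2 in the main comparison and also with each array centred on its median, with a robust variance estimate, with mature and precursor probe sets fitted separately, and without probe sets marked _x_st or _s_st, a choice made after seeing the data. In these fits both were the same 2 miRNAs. It was 3 after quantile normalization or with array weights, again including both. It became 1 with the replicate block, where MIMAT0003475 no longer passed (adjusted p = 0.0661), 0 with only the 6 Clock samples, and 4 at an adjusted p under 0.10. Leaving out each array gave 0 to 4 calls. The cause of these moves was not tested. The test of a different age effect in the genotypes gave 0 calls under all alternatives run, with a smallest adjusted p of 0.158 (without WT 21-month replicate 3). None of the 4 differences changed sign. MIMAT0003475 lost its call in 7 and MIMAT0000134 in 8 of the 12 fits without 1 array, with adjusted p up to 0.127. Over these fits the difference of MIMAT0025103 lay between -1.28 and -0.80 and that of MI0009918 between -0.79 and -0.51. Fitted with precursors alone, MI0009918 had an adjusted p of 0.0546. Precursors with higher values at an unadjusted p under 0.05 numbered 22 without probe sets marked _x_st or _s_st, against 34 with them, and the cause was not tested. A variance trend and a filter on dim probe sets were not run, since centred values hold no signal level.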
